A study of Macaca mulatta with 19 samples.

Results

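The genes described here are 42 genes of DNA replication and cell division, taken by their symbols from a table of raw read counts that holds 32386 genes. A row was found for 41 of them. Of these, 30 act mainly in mitosis and 11 act in S phase, the period of DNA synthesis. A filter on low counts was passed by 40 members, 29 mitotic and 11 S-phase. The row of BIRC5, a subunit of the chromosomal passenger complex, held 0 reads in all 19 libraries and did not pass, and RRM2, the small subunit of ribonucleotide reductase, had no row under its symbol. The rule uses gene names only and no measured value, but the list was chosen with earlier results of these data known.

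RNA came from luteinized granulosa cells, the steroid-producing cells that line the ovarian follicle, aspirated with the contents of the periovulatory follicle that each rhesus macaque had selected naturally. Treatment began near menarche and lasted about 3.5 years. Implants held cholesterol (C) or testosterone (T, set to give 4 to 5 fold more testosterone than C). The diet was standard chow or Western-style (WSD). The 4 groups are Chow+C (4 libraries), Chow+T (4), WSD+C (5) and WSD+T (6). Of 10 animals enrolled per treatment, 7 to 10 entered a controlled ovulation cycle. The labels also give the state of the oocyte. It was at metaphase I (MI) in 8 libraries and at metaphase II (MII), the fertilizable stage, in 4. It was degenerating in 6 and still had its germinal vesicle (GV) in 1. Classes were uneven over the groups. MI oocytes came from Chow+C (3), WSD+C (3) and WSD+T (2), and MII oocytes from Chow+C (1), Chow+T (2) and WSD+T (1). Degenerating oocytes came from Chow+T (1), WSD+C (2) and WSD+T (3), and the GV oocyte from Chow+T. The samples are unsorted aspirates, so fewer cells of a type and less RNA per cell cannot be told apart.

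Proliferating cells copy their DNA in S phase with proteins that E2F factors induce, among them the MCM helicase, the PCNA clamp and the nucleotide-making enzymes. They then build the mitotic machinery in G2 under FOXM1 and B-MYB, which drive cyclin B, CDK1, the Aurora and Polo kinases, the kinetochore and the spindle motors. Granulosa cells divide rapidly in the growing follicle, and the luteinizing hormone surge is known to end their division as they luteinize.

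Gene counts per library ranged from 28832132 to 56385679, and 3 libraries with degenerating oocytes (Chow+T 1, WSD+T 3 and WSD+T 4) were read more deeply than the others (83.5 to 85.5 M reads against 55.5 to 67.9 M). In Chow+C 2, 49.1% of reads fell in genes, against 55.9% to 69.1% elsewhere. All 9 granulosa markers with a row were at 1 CPM (a unit of counts relative to library size, scaled by TMM) or more in every library. WSD+C 4 stood apart in makeup. Its 9 granulosa markers summed to 1182 CPM, against 4961 to 11170 in the other libraries, and its 8 erythroid markers summed to 128900 CPM. Not every granulosa marker was low there. INHA was at 231.4 CPM (2734 to 7641 elsewhere), but HSD17B1 was at 127.7 CPM (11.5 to 26.5 elsewhere). Of 12 leukocyte markers, 1 (RAC2) was at 0 in every library. Their summed level was 22.2 to 52.8 CPM in Chow+C, 14.4 to 96.9 in Chow+T, 10.6 to 1519 in WSD+C and 28.6 to 1481 in WSD+T, the highest being WSD+C 4, WSD+T 6 (1481) and WSD+T 3 (182.5). Of 10 oocyte markers, DPPA3 was at 0 throughout. Their sum was 233.3 CPM in WSD+C 4, 18.7 in WSD+C 3, 17.02 in Chow+C 4, 13.3 in WSD+T 1 and at most 9.60 elsewhere. In the libraries at or below 9.60 CPM, 4 to 8 of these markers were at 0. The 11 macrophage markers summed to 2729 CPM in WSD+T 6, 329.8 in WSD+C 4, 149.2 in Chow+T 2 and 11.1 to 73.7 elsewhere. WSD+C 4 also had the highest smooth muscle, lymphocyte and epithelium marker sums. They were 2634, 426 and 399.8 CPM, against at most 180.6, 32.58 and 223.4 CPM elsewhere. Its endothelium sum, 101.7 CPM, was below the 128.6 CPM of WSD+T 6.

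The mitotic genes differed far more between animals than the S-phase genes did. Within treatment groups, the standard deviation of log2 CPM had a median of 1.33 over the 29 mitotic genes, 0.599 over the 11 S-phase genes and 0.552 over all 15019 genes tested. The highest library exceeded the lowest by 180.3 fold for MKI67, 122.8 fold for AURKA and 111.3 fold for BUB1. The lowest library was Chow+C 2 in each case, with 5 to 7 reads, and without it the ranges were 32.1, 60.6 and 50.4 fold. In contrast, the range was 2.63 fold for PLK1, a mitotic kinase, and 2.315 fold for RRM1, the large subunit of ribonucleotide reductase. RRM1 had the narrowest range of the S-phase genes. The widest were MCM5 and MCM3, at 37.9 and 32.8 fold, and 17.2 and 15.5 fold without Chow+C 2. These ranges describe the spread and carry no test.

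The same few libraries were high or low for most mitotic genes. Chow+T 2 was the highest of 19 for 14 of the 29 mitotic genes and Chow+C 4 for 10, and each was among the 3 highest for 27. WSD+C 1 was among the 3 highest for 16. At the other end, Chow+C 2 was the lowest for 17 and WSD+T 3 for 8, and WSD+T 3 was among the 3 lowest for 25. Many of the same libraries stood at the ends for the S-phase genes. Chow+C 2 was the lowest for 10 of 11, and Chow+C 4 was among the 3 highest for 7. WSD+C 4 was the highest for 6 of 11, against 3 of the 29 mitotic genes.

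**Figure D1:**
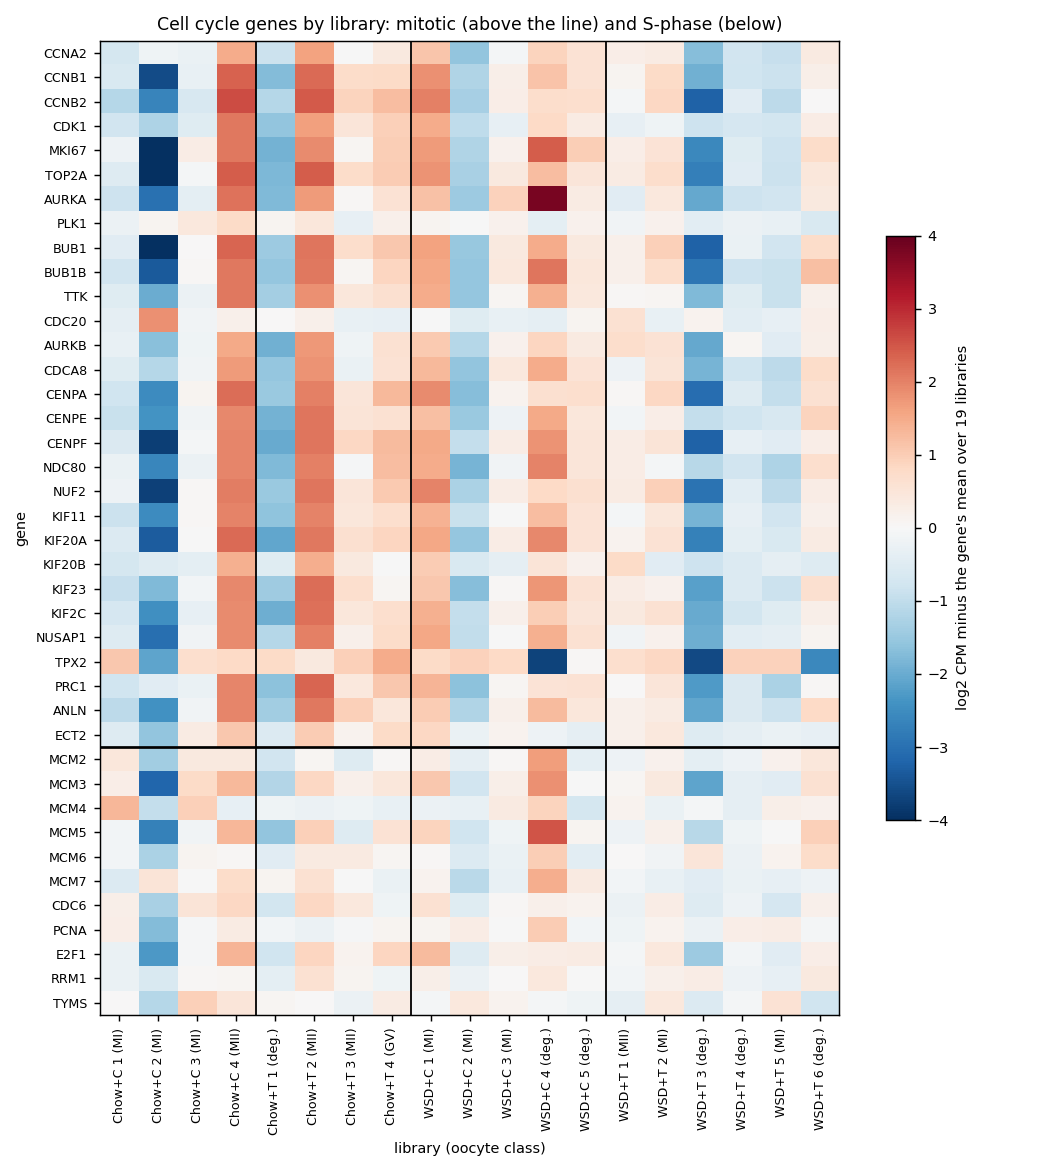
Each row is 1 of the 40 tested genes and each column 1 of the 19 libraries, with its oocyte class in brackets (deg., degenerating). Colour is log2 CPM minus the gene's mean over all libraries, with mitotic genes above the horizontal line, S-phase genes below it and vertical lines between treatment groups. Chow+C 4 and Chow+T 2 are red and Chow+C 2 and WSD+T 3 blue over most mitotic genes, while CDC20 is highest in Chow+C 2.

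MKI67, which encodes the Ki-67 protein that coats mitotic chromosomes, was at 6.54, 0.223, 9.21 and 32.9 CPM in Chow+C 1 to 4 and at 2.00, 28.1, 7.90 and 14.9 CPM in Chow+T 1 to 4. It was at 24.4, 3.24, 8.495, 40.2 and 14.96 CPM in WSD+C 1 to 5, and in WSD+T it ran from 1.25 through a median of 7.17 to 12.5 CPM. All 4 groups overlapped, and each of the first 3 held both a library under 4 CPM and a library over 24 CPM.

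TOP2A, the topoisomerase that untangles sister chromatids, was at 18.3, 1.34, 24.6 and 138.9 CPM in Chow+C and at 7.55, 141.1, 43.6 and 52.4 CPM in Chow+T. The values were 89.8, 10.5, 34.0, 61.1 and 36.5 CPM in WSD+C, and 3.87 to 42.3 CPM with a median of 25.9 in WSD+T. The groups overlapped again. Chow+T 2 and Chow+C 4 were the highest libraries for TOP2A, and WSD+C 4, the highest for MKI67, was behind WSD+C 1.

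CDK1, the kinase that drives entry into mitosis, was at 9.36, 6.73, 11.4 and 69.2 CPM in Chow+C and at 5.24, 49.9, 22.1 and 30.6 CPM in Chow+T. In WSD+C it was at 44.5, 7.75, 12.6, 27.6 and 19.9 CPM, and in WSD+T it ran from 8.92 through 11.3 to 19.7 CPM. Its partner CCNB1, or cyclin B1, was at 6.001, 0.744, 7.49 and 47.2 CPM in Chow+C and at 2.75, 43.9, 15.4 and 15.6 CPM in Chow+T. For both genes the highest library of Chow+C and of Chow+T had an MII oocyte, whereas in WSD+T the MII library was at 12.7 CPM for CDK1 and 9.84 CPM for CCNB1, below the highest library of that group. In WSD+C, CCNB1 was at 32.3, 3.998, 10.8, 20.03 and 13.7 CPM, and WSD+T ran from 2.42 through 7.58 to 15.6 CPM. CCNA2 and CCNB2, cyclins A2 and B2, spanned 1.96 to 19.95 CPM and 0.704 to 42.2 CPM.

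AURKA, the Aurora kinase of the centrosome and spindle poles, was at 1.25, 0.260, 1.72 and 10.2 CPM in Chow+C and at 0.647, 7.42, 2.35 and 3.42 CPM in Chow+T. It was at 5.08, 0.810, 4.27, 32.0 and 2.85 CPM in WSD+C and between 0.528 and 3.01 CPM in WSD+T. WSD+C 4 stood far above Chow+C 4, the next library for this gene. PLK1 was at 34.3 to 90.1 CPM and CDC20, an activator of the anaphase-promoting complex, at 67.7 to 144.6 CPM except in Chow+C 2, where it stood at 332.5 CPM although 17 mitotic genes were at their lowest in that library.

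The checkpoint kinases BUB1, BUB1B and TTK spanned 0.186 to 20.7, 0.260 to 12.9 and 0.707 to 12.7 CPM. AURKB and CDCA8 of the chromosomal passenger complex spanned 0.606 to 8.53 and 0.391 to 5.22 CPM. At the centromere and kinetochore, CENPF ran from 1.005 to 61.2 CPM and CENPE from 0.967 to 23.1 CPM. CENPA, NDC80 and NUF2 ran from 0.274 to 11.7, 0.186 to 5.09 and 0.260 to 16.9 CPM. All these genes were lowest in Chow+C 2, WSD+T 3 or both, and all were highest in Chow+C 4, Chow+T 2 or WSD+C 4. A level of 0.186 CPM in Chow+C 2 stood for 5 reads.

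Among the spindle motors, KIF11, KIF20A, KIF23 and KIF2C spanned 0.818 to 18.8, 0.260 to 13.7, 0.900 to 19.7 and 1.005 to 26.0 CPM. KIF20B, a kinesin of cytokinesis, had a narrower range, from 9.19 CPM in WSD+T 3 to 44.7 CPM in Chow+T 2. Of the genes of the spindle midzone and cytokinesis, NUSAP1 spanned 0.521 to 17.8, PRC1 3.50 to 84.8, ANLN 1.30 to 30.2 and ECT2 5.06 to 31.9 CPM. The row called PRC1 in the table is not paired with that symbol in the reference table, which gives it to a different row, so the identity of PRC1 is uncertain.

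TPX2, a spindle assembly factor that activates Aurora A, was distributed unlike the other mitotic genes. It stood at 334.8 to 900.7 CPM in 15 libraries, at 74.7 in Chow+C 2, 53.8 in WSD+T 6, 26.2 in WSD+T 3 and 24.6 CPM in WSD+C 4. The last 3 are the libraries with the highest leukocyte marker sums, whereas Chow+C 2 had a leukocyte sum of 26.75 CPM. WSD+C 4, among the high libraries for MKI67 and AURKA, was the lowest for TPX2.

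The 6 MCM genes encode the replicative helicase. MCM2 was at 14.4, 3.98, 13.7 and 13.6 CPM in Chow+C, at 6.16, 11.1, 7.40 and 10.9 CPM in Chow+T, at 13.0, 8.21, 10.9, 33.4 and 7.96 CPM in WSD+C and from 8.04 to 14.4 CPM in WSD+T. The extremes were Chow+C 2 and WSD+C 4, and the other 17 libraries lay between 6.16 and 14.4 CPM. The same libraries were the extremes of MCM3 (0.893 to 29.3 CPM), MCM5 (0.670 to 25.4 CPM) and MCM6 (7.14 to 34.4 CPM). MCM7 spanned 12.8 to 74.2 CPM and was highest in WSD+C 4. MCM4 was highest in Chow+C 1 and Chow+C 3, at 37.5 and 29.3 CPM, against 7.66 to 27.6 CPM in the others.

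PCNA, the sliding clamp of the DNA polymerases, was at 33.5, 8.37, 27.1 and 34.95 CPM in Chow+C, at 26.1, 23.9, 26.9 and 29.96 CPM in Chow+T, at 30.2, 34.2, 27.8, 56.4 and 26.0 CPM in WSD+C and from 23.7 to 34.5 CPM in WSD+T. Apart from Chow+C 2 and WSD+C 4, every library was between 23.7 and 34.95 CPM. TYMS, thymidylate synthase, was at 14.9, 6.58, 28.3 and 20.4 CPM in Chow+C and at 15.3, 14.9, 12.4 and 18.3 CPM in Chow+T. In WSD+C it was at 13.9, 19.8, 16.04, 13.96 and 13.1 CPM, and in WSD+T it ran from 8.52 to 21.8 CPM. Its highest libraries, Chow+C 3 and WSD+T 5, were not those of the mitotic genes. RRM1 spanned 20.6 to 47.7 CPM and CDC6, which loads the MCM helicase, 1.90 to 8.40 CPM.

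E2F1, a transcription factor of the G1/S transition, was at 4.13, 1.005, 4.92 and 12.9 CPM in Chow+C and at 2.90, 9.04, 5.61 and 9.04 CPM in Chow+T. It was at 12.0, 3.51, 5.87, 6.23 and 6.33 CPM in WSD+C and ran from 1.799 to 6.74 CPM in WSD+T. Chow+C 4 and WSD+C 1 were the highest libraries. They were among the 3 highest for 27 and 16 of the 29 mitotic genes. WSD+C 4, the highest library for most MCM genes, was not raised above WSD+C 5.

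To set S phase against mitosis in each library, the mean log2 CPM of the 11 S-phase genes and of the 29 mitotic genes were taken as scores. The mitotic score was 2.35, 0.65, 2.81 and 4.75 in Chow+C, 1.58, 4.72, 3.28 and 3.66 in Chow+T, and 4.23, 1.77, 3.07, 3.95 and 3.35 in WSD+C. In WSD+T it ran from 0.89 through 2.75 to 3.33. The S-phase score stayed between 3.04 and 4.62 except in Chow+C 2, where it was 2.14.

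The S-phase minus the mitotic score averaged 0.85 ± 0.95 (SD, n = 4) in Chow+C, 0.30 ± 0.90 (SD, n = 4) in Chow+T, 0.53 ± 0.62 (SD, n = 5) in WSD+C and 1 ± 0.66 (SD, n = 6) in WSD+T. By oocyte class it averaged 0.93 ± 0.62 (SD, n = 8) for MI, -0.13 ± 0.57 (SD, n = 4) for MII and 1.03 ± 0.70 (SD, n = 6) for degenerating oocytes. The difference was below 0 in 3 libraries, Chow+T 2 (-0.69), Chow+C 4 (-0.56) and WSD+C 1 (-0.23), of which 2 had MII oocytes. It was highest in WSD+T 3, at 2.15. Ranges of the groups overlapped. The score is a description of the listed genes and was not tested.

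**Figure D2:**
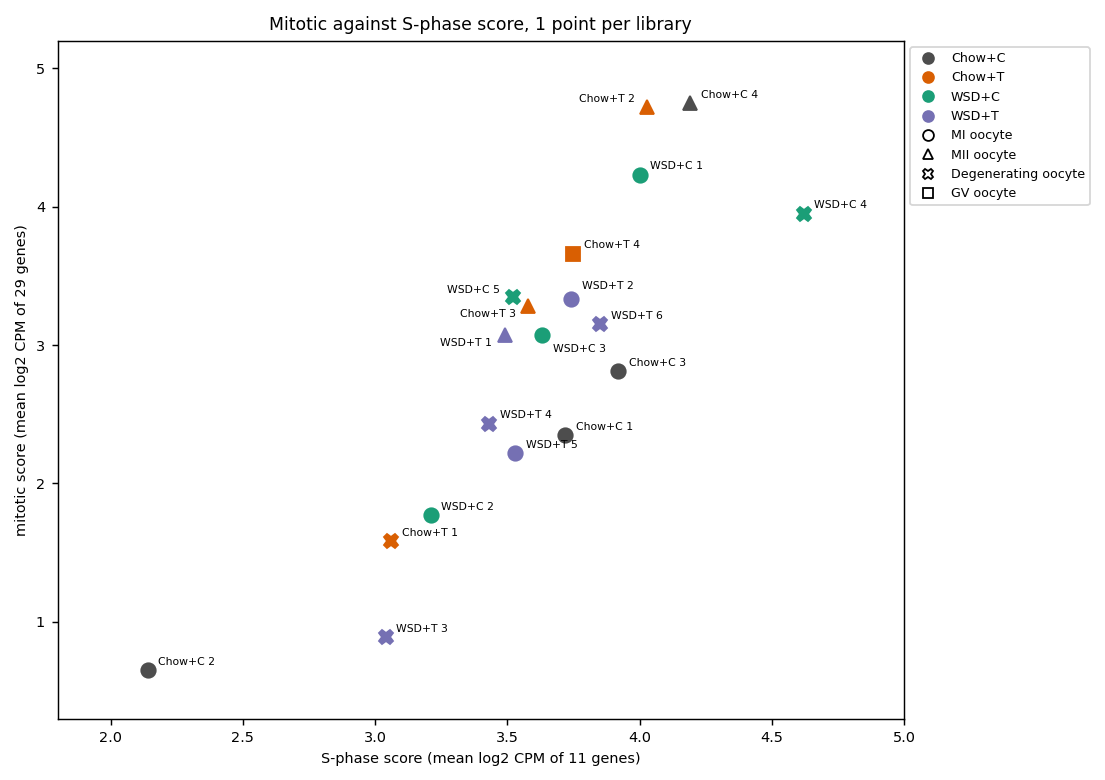
Each point is 1 library, placed by its S-phase score (horizontal, mean log2 CPM of 11 genes) and its mitotic score (vertical, mean log2 CPM of 29 genes). Colour gives the treatment group and shape the oocyte class. The mitotic score runs from 0.65 to 4.75 and the S-phase score from 2.14 to 4.62, and libraries of all 4 treatment groups are intermixed.

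Each treatment comparison was tested over 15019 genes by edgeR's quasi-likelihood test with Benjamini-Hochberg adjustment at 0.05. None of the 40 tested members passed in any of the 6 comparisons, and neither did any other gene (0% of 15019). DESeq2 and limma-voom also called no member. Over all genes DESeq2 called 0 to 5 per comparison and limma-voom 0. Comparisons that use the same group share its libraries and are not independent, and medians below describe the fitted log2 fold changes of the genes without a test. The oocyte class was not a term in these fits. Chow+T held no MI library and WSD+C no MII library, so differences of treatment and of oocyte class cannot be told apart in them.

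Testosterone on chow (Chow+T against Chow+C) gave 27 of 29 mitotic genes a positive fold change, with a median of 0.32 on the log2 scale. Over all genes the median was -0.02, and 48.2% were positive. No mitotic or S-phase gene reached an unadjusted p under 0.05, against 7.18% of all genes (2.32% higher and 4.87% lower). The mitotic median moved with single libraries. It was -0.32 without Chow+T 2, which reversed its sign, and 1.65 without Chow+C 4, which did not. CDC20 had the smallest p, with a log2 fold change of -0.76 (SE 0.377, edgeR adjusted p = 0.693), and the value was -0.01 without Chow+C 2. The next mitotic genes were PLK1 at -0.18 and ECT2, a regulator of the cleavage furrow, at 0.32. The S-phase median was -0.05, with 4 of 11 positive. MCM4 stood at -0.75 (SE 0.398, edgeR adjusted p = 0.694), RRM1 at 0.25 and MCM6 at 0.35. MCM4 was at -0.34 without Chow+C 1.

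The Western-style diet without testosterone (WSD+C against Chow+C) gave a mitotic median of 0.10, with 21 of 29 positive, and an S-phase median of 0.26, with 8 of 11 positive. Over all genes the median was 0.02, 52.6% were positive and 47.4% negative. CDC20 alone reached an unadjusted p under 0.05, as 2.50% of all genes did higher and 2.58% lower. Its log2 fold change was -0.87 (95% confidence interval -1.61 to -0.12, edgeR adjusted p = 0.83), and it was -0.12 without Chow+C 2. PLK1 stood at -0.29 and AURKA at 1.42, which was -0.05 without WSD+C 4. The S-phase genes of smallest p were PCNA at 0.43 (SE 0.31), RRM1 at 0.26 and MCM5 at 0.83. The mitotic median was 1.48 without Chow+C 4 and -0.18 without Chow+C 2. The S-phase median was -0.14 without WSD+C 4.

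Testosterone on the Western-style diet (WSD+T against WSD+C) gave negative fold changes for 28 of 29 mitotic genes and 10 of 11 S-phase genes, with medians of -0.90 and -0.29. Over all genes the median was 0 and 50% were negative. The mitotic median stayed negative when each library was left out in turn, between -1.13 and -0.52. AURKA reached an unadjusted p under 0.05, as 3.86% of all genes did (0.699% higher and 3.16% lower). Its log2 fold change was -2.34 (95% confidence interval -4.26 to -0.42, edgeR adjusted p = 0.999). It was -0.87 without WSD+C 4, the library with high erythroid, leukocyte, oocyte and other marker sums. The part of that library in the result was otherwise not tested. NUSAP1, a microtubule-bundling protein, stood at -1.09 (SE 0.68) and MKI67 at -1.34 (SE 0.853). MCM7, MCM5 and MCM3 stood at -0.64, -0.95 and -0.84, and MCM7 was at -0.15 without WSD+C 4. The S-phase median was -0.07 without WSD+C 4.

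The Western-style diet under testosterone (WSD+T against Chow+T) also gave negative values for 28 of 29 mitotic genes, with a median of -1.08. The S-phase median was -0.09, with 7 of 11 negative. Over all genes the median was 0.04, 45% were negative and 55% positive. Without Chow+T 2 the mitotic median was -0.39. The row called PRC1 reached an unadjusted p under 0.05, as 4.97% of all genes did (2.20% higher and 2.77% lower), with a log2 fold change of -1.48 (95% confidence interval -2.95 to -0.02, edgeR adjusted p = 0.862) that was -0.69 without Chow+T 2. PLK1 stood at -0.37 and CCNB2 at -1.59 (SE 0.886). The S-phase genes of smallest p were MCM7 at -0.42, E2F1 at -0.53 and CDC6 at -0.36.

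Both treatments against neither (WSD+T against Chow+C) gave negative values for all 29 mitotic genes, with a median of -0.67, and for 8 of 11 S-phase genes, with a median of -0.31. Over all genes 50.1% were negative. The mitotic median was 0.55 without Chow+C 4, so that 1 library set its sign. PLK1 reached an unadjusted p under 0.05, as 6.75% of all genes did (3.06% higher and 3.69% lower). PLK1 was at 44.6, 56.7, 69.7 and 90.1 CPM in Chow+C and from 34.3 through 43.8 to 59.4 CPM in WSD+T. The 2 groups overlapped, and the log2 fold change was -0.55 (95% confidence interval -0.97 to -0.13, edgeR adjusted p = 0.717). CDC20 stood at -0.62, and at 0.13 without Chow+C 2. CDK1 stood at -0.95 (SE 0.636), and at 0.45 without Chow+C 4. The S-phase genes of smallest p were MCM7 at -0.52, MCM4 at -0.54 and MCM6 at 0.42.

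The interaction, which asks whether testosterone had another effect on the Western-style diet than on chow, was negative for 28 of 29 mitotic genes, with a median of -1.24, and for 9 of 11 S-phase genes, with a median of -0.28. Over all genes the median was 0.01, 49% were negative and 51% positive. No member reached an unadjusted p under 0.05, against 4.52% of all genes (2.62% higher and 1.90% lower). CDC20 stood at 1 (SE 0.496), AURKA at -2.38 (SE 1.38) and NUSAP1 at -1.52. CDC20 was at 0.26 without Chow+C 2 and AURKA at -0.91 without WSD+C 4. MCM4, MCM7 and E2F1 stood at 0.63, -0.53 and -0.77. The mitotic median was -2.58 without Chow+C 4 and -0.51 without Chow+T 2. Thus a difference between the diets in the response of the mitotic genes was not detectable at this spread.

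**Figure D3:**
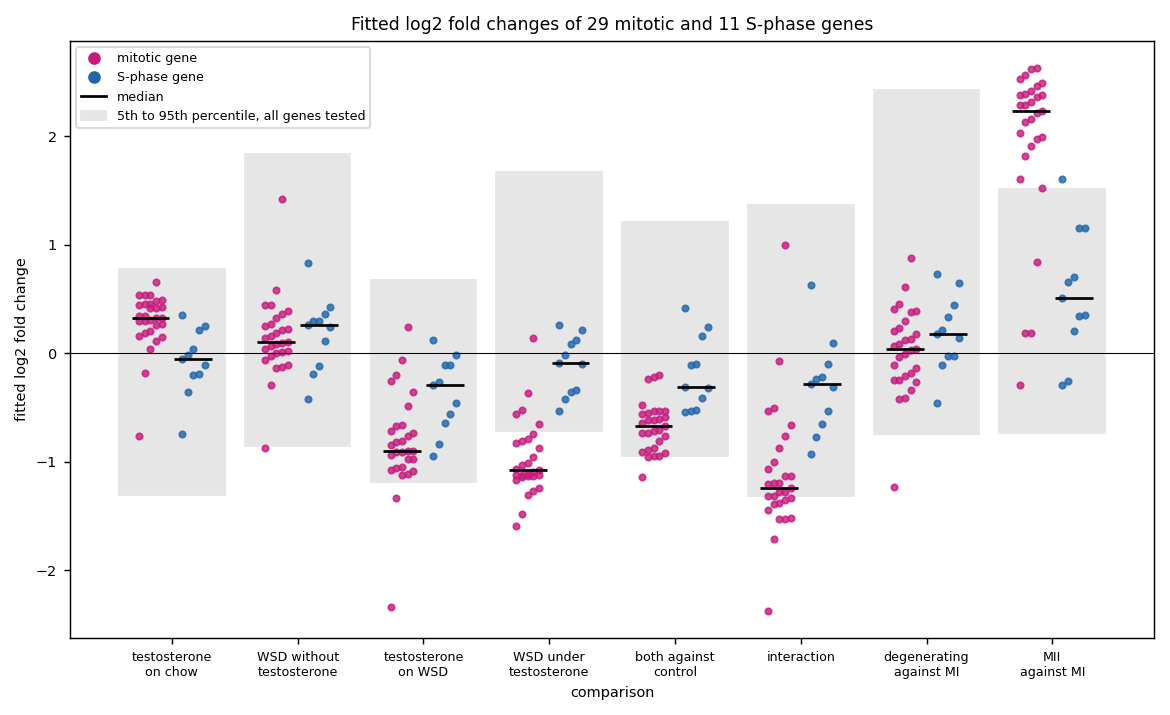
Points are the fitted log2 fold changes (vertical) of the 29 mitotic and 11 S-phase genes in each of 8 comparisons, black bars are their medians, and grey boxes span the 5th to 95th percentile of all genes tested. The mitotic median is -0.90 for testosterone on WSD and 2.23 for MII against MI oocytes, where most mitotic genes lie above the grey box. No point passed the adjusted threshold of edgeR.

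Oocyte classes were compared over 14976 genes in 18 libraries, with the treatment group as a term and the GV library left out. Between follicles with degenerating and with MI oocytes, no difference in these genes was detected beyond the spread between animals. By edgeR 0 of the 40 members passed the adjusted threshold (0% of all genes), and DESeq2 called 0 members among 801 genes. The mitotic median was 0.04, with 16 of 29 positive, and the S-phase median 0.18, with 7 of 11 positive, beside an all-gene median of 0.02 and 52% positive. MCM7 alone reached an unadjusted p under 0.05, as 9.82% of all genes did higher and 4.45% lower. Its log2 fold change was 0.65 (95% confidence interval 0.03 to 1.27, edgeR adjusted p = 0.329), and it was 0.33 without WSD+C 4. TPX2 stood at -1.23 (SE 0.782), ECT2 at -0.41, AURKA at 0.88 (-0.18 without WSD+C 4), TYMS at -0.46 and MCM6 at 0.44. The leukocyte marker score ran from -0.42 to 6.69 (mean log2 CPM) with degenerating oocytes and from -1.12 to 1.92 with MI oocytes. With that score as a covariate, the medians were -0.60 for the mitotic and -0.30 for the S-phase genes.

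Between follicles with MII and with MI oocytes, 28 of 29 mitotic genes had a positive log2 fold change, with a median of 2.23, and 25 reached an unadjusted p under 0.05 with a higher level. Over all genes the median was -0.01, 49% were positive, and 2.21% reached that p higher and 1.70% lower. No gene passed after adjustment by edgeR (0% of 14976), and every member had an adjusted p of 1. DESeq2 called 1 member, KIF20B, among 6 genes, and limma-voom called 0.

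KIF20B was at 43.8, 44.7, 21.3 and 27.4 CPM in the MII libraries Chow+C 4, Chow+T 2, Chow+T 3 and WSD+T 1. With MI oocytes it ran from 9.95 through a median of 12.0 to 33.0 CPM. Of the MI libraries WSD+C 1 alone, at 33.0 CPM, reached the MII range. Its log2 fold change was 1.61 (SE 0.316, edgeR unadjusted p = 0.000137, adjusted p = 1) and was 1.36 without Chow+C 4.

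CDK1 was at 69.2, 49.9, 22.1 and 12.7 CPM in the same MII libraries and from 6.73 through 10.5 to 44.5 CPM with MI oocytes, for a log2 fold change of 2.21 (SE 0.619, edgeR adjusted p = 1). ANLN, anillin of the contractile ring, was at 27.7, 30.2, 13.8 and 8.22 CPM against 1.30 through 5.11 to 14.2 CPM, for a log2 fold change of 2.38 (SE 0.743, edgeR adjusted p = 1). In both genes the MI libraries WSD+C 1 and WSD+T 2 lay within the MII range. Without Chow+C 4 the values were 1.31 for CDK1 and 1.76 for ANLN. MKI67 stood at 2.29 (SE 1.03), TOP2A at 2.56 (SE 0.962), CCNB1 at 2.49 (SE 0.872) and AURKA at 2.63 (SE 1.07). The 4 mitotic genes that did not reach an unadjusted p under 0.05 were NUF2 at 1.97, PLK1 and CDC20 both at 0.19, and TPX2 at -0.29.

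The S-phase genes had smaller values, with a median of 0.51 and 9 of 11 positive, and none reached an unadjusted p under 0.05. E2F1 stood at 1.15 (SE 0.554), MCM5 at 1.61 (SE 0.791) and MCM7 at 0.70 (SE 0.35), while MCM2 was at 0.35, PCNA at 0.20 and TYMS at -0.29. Whether the S-phase genes differed less than the mitotic genes was not tested.

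**Figure D4:**
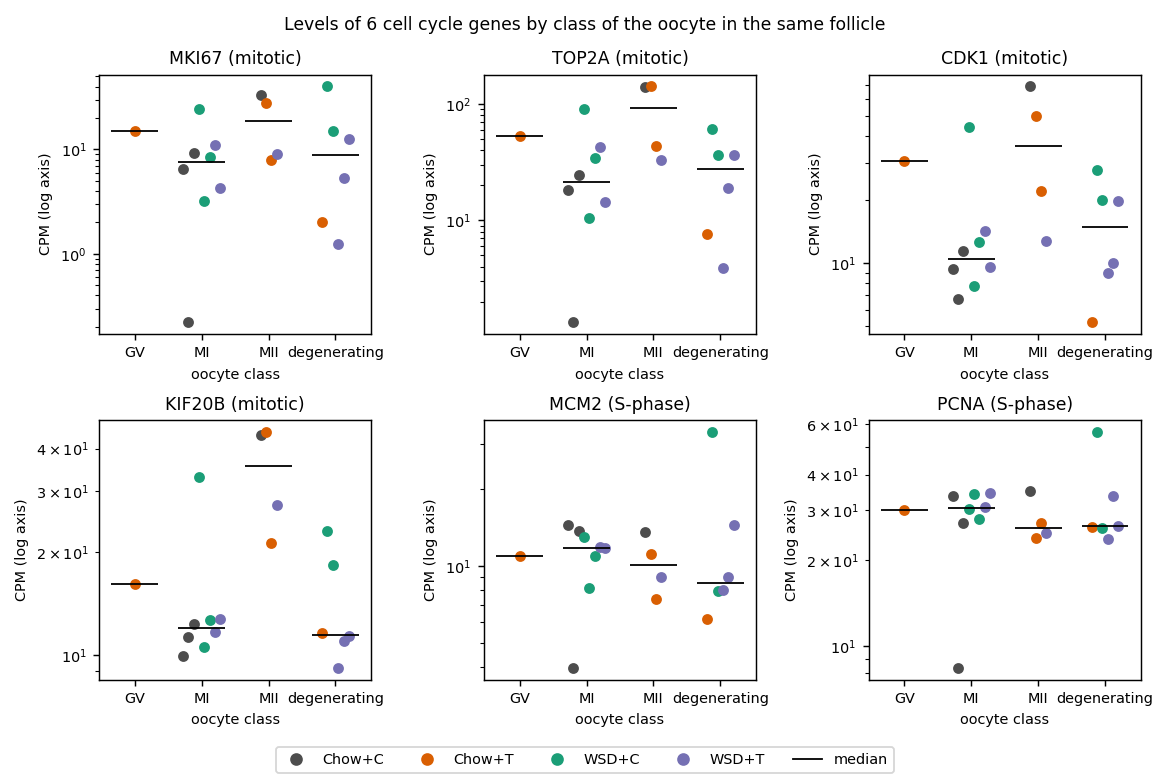
CPM (vertical, log axis) of 4 mitotic and 2 S-phase genes by oocyte class, with 1 point per library coloured by treatment group and bars at class medians. For KIF20B the 4 MII libraries lie between 21.3 and 44.7 CPM and 1 MI library, WSD+C 1, reaches that range. The MII and MI libraries also overlap for MKI67, TOP2A, CDK1, MCM2 and PCNA.

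MI and MII oocytes occurred together in Chow+C and WSD+T only, and these groups did not show the same pattern. In Chow+C, the MII library (Chow+C 4) was above all 3 MI libraries for 27 of 29 mitotic genes and 7 of 11 S-phase genes, against 21.1% of all genes. In WSD+T, the MII library (WSD+T 1) was above both MI libraries for 5 of 29 mitotic genes, below both for 1 and between them for 23, against 34.4% of all genes above. Of the S-phase genes there, 1 of 11 was above and 4 were below. The share of all genes below both MI libraries is not given, so the counts below have nothing to be set against. MKI67, for example, was at 8.97 CPM in WSD+T 1 and at 10.99 and 4.24 CPM in the MI libraries of that group, whereas KIF20B was at 27.4 CPM against 11.7 and 12.7 CPM. Whether Chow+C and WSD+T differed was not tested, since each held 1 MII library. When the degenerating libraries of WSD+T were added to its MI libraries, WSD+T 1 was above all of them for 3 of 29 mitotic genes, against 16.3% of all genes. Chow+T held 2 MII libraries and no MI library. Both were above its degenerating and GV libraries for 3 of 29 mitotic genes and 3 of 11 S-phase genes, against 16.1% of all genes.

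The count of mitotic genes at an unadjusted p under 0.05 moved with single libraries and settings. It was 1 instead of 25 without Chow+C 4, 12 without Chow+T 1, 13 with the leukocyte score as a covariate and 8 without the 3 most deeply read libraries. The share of all genes at that p in these fits is not given here. A change in the mitotic genes alone therefore cannot be read from these counts. The mitotic median was 1.43 without Chow+C 4 and 1.37 without a term for the treatment group, and it was positive in every fit run. The leukocyte score was 0.49 to 2.46 with MII oocytes and the oocyte marker sum 17.02, 3.58, 2.35 and 13.3 CPM in Chow+C 4, Chow+T 2, Chow+T 3 and WSD+T 1, against 2.24 to 18.7 CPM with MI oocytes. Of the 10 oocyte markers, 1 was at 0 in the MII libraries Chow+C 4 and WSD+T 1 and in the MI library WSD+C 3. In the MII libraries Chow+T 2 and Chow+T 3, 4 and 8 were at 0, and in the other MI libraries 6 or 7. GDF9 gave 2.22 of the 2.35 CPM in Chow+T 3. The part of the oocyte's own RNA was not tested.

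The members were also fitted against the leukocyte and granulosa marker scores, with the treatment group as a term. Of the 40 members, 6 passed the adjusted threshold for the leukocyte score, beside 21.6% of all genes (12.6% higher and 9.02% lower). TPX2 had lower levels with a higher score, with a slope of -0.58 in log2 level per unit of the score (SE 0.139, edgeR adjusted p = 0.00728). AURKA had a slope of 0.38 (SE 0.13, edgeR adjusted p = 0.0433). Of the helicase genes, MCM6 had a slope of 0.15 (SE 0.0402, edgeR adjusted p = 0.0118), MCM7 one of 0.16, MCM2 one of 0.16 and MCM5 one of 0.27. All 6 calls were lost without WSD+C 4, although the slope of TPX2 was then still -0.50 and that of MCM6 0.12, while MCM7 and MCM2 were at 0.07 and 0.06. For the granulosa score only MCM7 passed, with a slope of -0.78 (SE 0.253, edgeR adjusted p = 0.0467), beside 15.7% of all genes, and without WSD+C 4 the slope was -0.28 and not past the threshold.

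**Figure D5:**
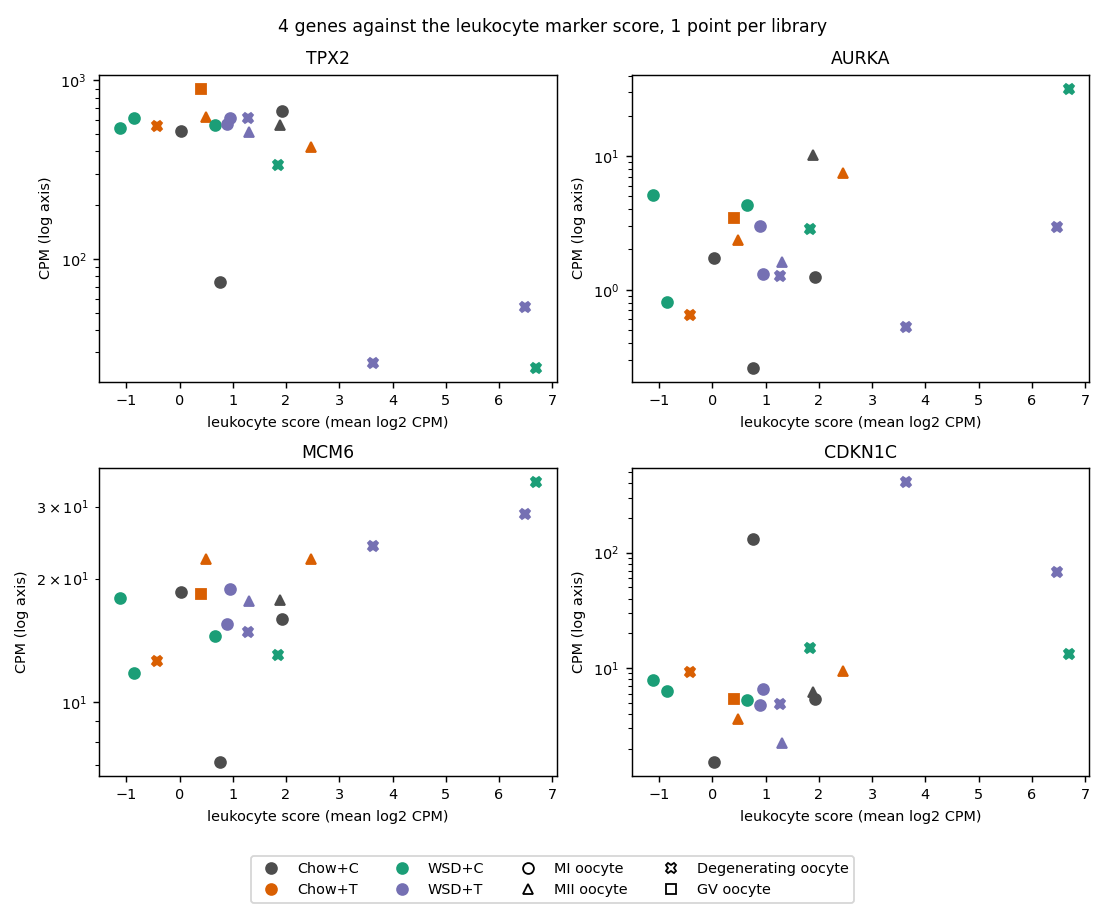
CPM (vertical, log axis) of TPX2, AURKA, MCM6 and the CDK inhibitor gene CDKN1C against the leukocyte marker score (horizontal, mean log2 CPM of 11 markers), with 1 point per library, coloured by treatment group and shaped by oocyte class. The 3 libraries at scores of 3.64 to 6.69 lie at or below 53.8 CPM for TPX2, and WSD+C 4 is the highest library for AURKA and MCM6.

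Other lists of cell cycle genes gave these counts. Of 39 further tested genes of mitosis, 38 had a positive value for MII against MI, with a median of 1.85, and 29 reached an unadjusted p under 0.05 higher, beside the 2.21% of all genes. Of 33 further genes of replication 26 were positive, and 6 reached that p. Of 17 CDK inhibitors and other brakes on the cycle 10 were positive, with a median of 0.17, and 5 reached that p higher. Of 14 E2F and related factors 11 were positive, with a median of 0.28, and 1 reached it higher. Over all genes 49% were positive. None passed after adjustment by edgeR. The mean log2 CPM of the 39 mitosis genes was 3.74 in Chow+C 4 and 3.70 in Chow+T 2. It was 2.47 in Chow+T 3 and 2.33 in WSD+T 1, within the 0.39 to 3.20 of the MI libraries. How the counts of these lists moved with a library left out was not tested. FOXM1, the factor that induces the mitotic genes, stood at 2.04 (SE 0.759, edgeR adjusted p = 1). It was at 18.4, 20.9, 6.41 and 4.78 CPM in Chow+C 4, Chow+T 2, Chow+T 3 and WSD+T 1 and from 1.15 to 11.1 CPM with MI oocytes, so that the classes overlapped. Without Chow+C 4 its value was 1.35. MYBL2, which encodes B-MYB, stood at 1.41 (SE 0.7), and at 0.75 without Chow+C 4. CDT1, a licensing factor, stood at 2.22 (SE 0.883), and at 1.43 without Chow+C 4. Its inhibitor GMNN, or geminin, stood at 0.11. For testosterone on WSD, 36 of the 39 mitosis genes were negative, with a median of -0.70, and 3 reached an unadjusted p under 0.05 lower, beside 50% negative and 3.16% lower over all genes.

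Of 9 G1 cyclins and CDKs, which set the entry into the cycle, 6 were positive for MII against MI and none reached an unadjusted p under 0.05, beside 49% positive, 2.21% higher and 1.70% lower over all genes. The D cyclins CCND2 and CCND3 stood at 0 and -0.07, CCND1 at 1.05 (-0.65 without WSD+T 1), the E cyclins CCNE1 and CCNE2 at 0.26 and 0.95 (0.29 for CCNE2 without WSD+C 4), and RB1, which restrains E2F, at 0. CDKN1A, encoding the p21 inhibitor, was at 368.0 to 988.0 CPM in 17 libraries, at 272.9 in WSD+T 6 and 131.1 in WSD+C 4. CDKN1B, encoding p27, spanned 86.3 to 177.2 CPM. Against MI, degenerating oocytes gave CCND1 a value of 1.94 (SE 0.664), CCNE2 1.76 (SE 0.687) and CDKN1A -0.91 (SE 0.391), with edgeR adjusted p of 0.217, 0.27 and 0.317. Without WSD+C 4 these values were 1.28, 0.53 and -0.60, and CCNE2 was at -0.32 when the fit held the leukocyte score. CCNE2 was at 3.14 CPM in WSD+C 4, 1.19 in WSD+T 6 and at most 0.444 CPM elsewhere.

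CDKN1C, encoding the p57 inhibitor, was high in 3 libraries, 406.2 CPM in WSD+T 3, 132.0 in Chow+C 2 and 68.2 in WSD+T 6, against 1.54 to 15.01 CPM in the other 16. WSD+T 3 and Chow+C 2 are the libraries with the lowest mitotic scores, 0.89 and 0.65, while WSD+T 6 had a score of 3.15. The interaction for CDKN1C was 5.49 on the log2 scale (SE 2, edgeR adjusted p = 0.933). It was 2.44 without Chow+C 2, 3.26 without WSD+T 3 and 1.05 by limma-voom. None of the cell cycle genes outside the members passed in a treatment or oocyte comparison.

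For the members whose symbols have no usable row, the reference table pairs the unlabelled row ENSMMUG00000013767 with BIRC5 and ENSMMUG00000002057 with RRM2. The first was at 16.1, 13.3, 4.25 and 3.42 CPM in the MII libraries Chow+C 4, Chow+T 2, Chow+T 3 and WSD+T 1 and from 0.0372 CPM in Chow+C 2 (1 read) to 11.9 CPM in WSD+C 1 with MI oocytes. The classes overlapped, and the row had a log2 fold change of 2.50 (SE 1.09, edgeR adjusted p = 1) for MII against MI. The second was highest in WSD+C 4, at 18.4 CPM. Both lie outside the rule and outside every count above.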

How the data were processed

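The authors deposited raw read counts per gene, whole numbers in 1 table that covers the 19 libraries, from polyA-selected non-directional libraries, per the labels' protocols. Trimmomatic and STAR are named in the submitters' processing notes, with no versions. Neither build nor annotation is given in the sources used here. Reads of antisense or overlapping genes cannot be separated without strand. The 4 classes of reads in no gene (30.9% to 50.9% of a library) were left out.

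The test was that of edgeR 4.0.16 in R 4.3.3 (filterByExpr, minimum count 10, minimum total 15, TMM scaling, robust quasi-likelihood test, two-sided, Benjamini-Hochberg over all genes). DESeq2 1.42.0 and limma-voom (limma 3.58.1) were alternatives. Each column matched 1 sample. The labels call the libraries biological replicates, replicate numbers were given here in accession order, and intervals cover the fit only. The 10 comparisons are 6 of treatment, 2 of oocyte class and 2 slopes on marker scores (mean log2 CPM, prior count 1). The members and lists were chosen with earlier results of these data known. All members are given by their range. Those given in full are a panel of 9 members, members past the threshold and up to 3 mitotic and 3 S-phase genes of smallest p per comparison, plus a panel of 13 other cell cycle genes. BUB1 as an example of the spread, and PLK1, CDC20, KIF20B, TPX2 and NUF2 in places outside this rule, were chosen after their values were seen. Scripts were tested on simulated data for testosterone on WSD only, with the spread of the most variable genes capped. That test does not cover the oocyte and slope fits, or genes as variable as most of the mitotic ones. No sequence or coordinate is given, since the build is unknown.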

Additional observations from a re-analysis of the deposited data

Results flagged for a closer look

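A library was compared with the rest of its group for each of the 40 tested members, the 13 other cell cycle genes named and the scores, 224 group tests in all, and 17 stood apart from the others of their group by Dixon's criterion. Chance flags about 1 in 20 such groups. In Chow+C, KIF20B was high in Chow+C 4, at 5.45 log2 CPM, and 3 genes were low in Chow+C 2, namely TPX2 at 6.22, MCM2 at 2.00 and MCM6 at 2.84. In WSD+C, TPX2 was low in WSD+C 4, at 4.62. In WSD+T, KIF20B was high in WSD+T 1, the MII library of that group, at 4.78, and 3 genes were low in WSD+T 3, namely KIF20A at -1.20, CENPF at 0.59 and NUSAP1 at 0.19. Of the other cell cycle genes, CCND2 was low (4.33) and CCND3 high (5.33) in Chow+T 3, and CCNE1 was low in Chow+T 4, at 1.02. In WSD+C, CCNE1 (2.59) and CCNE2 (1.66) were high in WSD+C 4 and GMNN was high in WSD+C 1, at 5.52. In WSD+T, CCNE2 was high in WSD+T 6, at 0.28, and CDT1 was low in WSD+T 3, at -1.57. Chow+C 2 had the lowest share of reads in genes, 49.1%, and WSD+T 3 was 1 of the 3 most deeply read libraries. The part of either in these values was not tested.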

How the results depend on the processing

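No member call of a treatment or oocyte comparison changed with scaling, filter, covariate or any library left out, and DESeq2 alone added 1 (KIF20B, MII against MI). The mitotic median, with each library left out in turn, ranged from -0.32 to 1.65 for testosterone on chow, -0.18 to 1.48 for WSD without testosterone, -1.07 to 0.55 for both treatments and -2.58 to -0.51 for the interaction. For MII against MI it ranged from 1.43 to 2.93, and the count of mitotic genes at an unadjusted p under 0.05 from 1 to 26. That count was 13 with the leukocyte covariate and, under alternatives added after seeing the data, 8 without the 3 deepest libraries, 15 without the treatment group term and 2 without Chow+C 2 and Chow+C 4. Leukocyte slope calls were 3 with no filter on low counts and 0 to 8 with a library left out. They fell to 2 without Chow+T 2 or WSD+C 2, 3 without WSD+C 3 and 0 without WSD+C 4. Granulosa slope calls were 0 with RLE or upper-quartile scaling or no filter, 2 with DESeq2 and 0 to 1 with a library left out. Shares of all genes at the same threshold are not given beside these counts, so a change in the members alone cannot be read from them. The cause was not tested.

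For degenerating against MI oocytes the call count over all genes was 0 by edgeR, 801 by DESeq2, 809 without the 3 deepest libraries and 574 without the group term. Upper-quartile scaling moved the all-gene median of the granulosa slope from -0.06 to -0.18. It also moved the share of all genes higher and lower at an unadjusted p under 0.05 to 1.66% and 5.90% for testosterone on chow, 3.11% and 2.05% for WSD without testosterone, 2.44% and 1.20% for MII against MI, 24.3% and 12.3% for the leukocyte slope and 8.02% and 21.4% for the granulosa slope. Promoter motifs, planned as a description, were not run because sequences were not used here. No paired analysis was possible because replicate numbers were given in accession order and pair nothing across groups. BUB1 and NDC80, the lowest mitotic genes past the filter in Chow+C 2, held 5 reads there, and the part of depth was not tested.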
